A study of Mus musculus with 167 samples.

Results

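The hyaluronan genes described here are 10 of the 36118 genes in a count table of mouse mesothelioma. They are the synthases Has1, Has2 and Has3, the degradation genes Hyal1, Hyal2 and Cemip, the receptors Cd44 and Hmmr, and the matrix partners Tnfaip6 and Vcan, each found in the table by its Ensembl identifier. The table covers 167 tumours from 119 mice of 35 crosses, called strains here. Every mouse had a Collaborative Cross father and a MexTAg mother. In MexTAg animals the mesothelin promoter drives the SV40 large T antigen, so the oncogene was shared by both groups and is directed to mesothelial cells. All mice also shared the exposure, 2 injections of 3 mg crocidolite asbestos into the peritoneal cavity, and the labels name no other treatment and no age. The 36 mice labelled below median survival gave 52 tumours, and the 83 labelled above it gave all the others. In 13 strains both classes were present, 16 strains held mice above the median alone, and 6 strains held mice below it alone.

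Hyaluronan is a long sugar polymer of the extracellular matrix and the main glycosaminoglycan secreted by mesothelial cells, and its level in effusions is used in the clinic as a marker of mesothelioma. The Has enzymes make it at the plasma membrane, the hyaluronidases and Cemip cut it, and Cd44 is its chief surface receptor. Versican (Vcan) binds the polymer in the matrix, and Tnfaip6 moves heavy chains of inter-alpha-inhibitor, encoded by the Itih genes, onto it.

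Tumours were sequenced whole, so a lower level can reflect fewer cells of a type or less RNA per cell, and these cannot be told apart. A library held 11138491 to 35399287 counts (median 22539831). Mesothelial markers were present: Krt8 and Krt18 exceeded 1 CPM (a count scaled to library size) in 167 of 167 tumours and Msln in 166, while Calb2 did so in 7. In 19 libraries markers of another tissue took over 1% of counts, and 5 libraries resembled another strain more than their own over 300 strain-dependent genes. The 17 libraries with the highest library numbers in the labels were left out together as an alternative, and in 8 strains with 28 mice every mouse held the kidney transcript Umod at 2 CPM or more. Differences of the members between classes, strains or mice whose call changes when such libraries are left out are given with and without them. The labels do not say whether tumours of a mouse were processed together or apart, so both their likeness and their spread may be partly technical.

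Among the synthases, Has2 was the highest in most tumours and Has3 the lowest. Has2 stood at 0.651 CPM in the lowest tumour, 25.99 in the median and 403 in the highest. For Has1 these levels were 0.0973, 3.54 and 119 CPM, and for Has3 0.105, 1.67 and 23.2 CPM. Each of the 2 lowest values of Has1 and Has3 rests on 2 counts, in 1 tumour of CC044-F4 and in the tumour of CC046-H2. All 3 distributions had a long upper end: a single tumour of LOX-B4 held 6.94% of the Has1 CPM summed over all tumours. The genes lie apart in GRCm38, Has1 at chr17:17843323-17855205 on the minus strand, Has2 at chr15:56665627-56694539 on the minus strand and Has3 at chr8:106870242-106884566 on the plus strand.

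Synthases were ranked within each tumour by counts per kilobase of the longest coding transcript (2095 bases for Has1, 4237 for Has2, 5912 for Has3), and one was called dominant at 2 times the next or more. Has2 was dominant in 66.5% of 167 tumours, Has1 in 19 and Has3 in 0, and 37 were mixed. The Has2 tumours came from 78 mice of 32 strains, and the 19 Has1 tumours from 17 mice of 13 strains. The share of Has1 ran from 1.08% to 97.3% of the 3 synthases (median 19.7%), and that of Has2 from 2.15% to 98.6% (median 74.2%). Has3 reached 28.99% in its highest tumour and had a median of 2.91%. These shares rest on 31 to 9462 synthase counts per tumour (median 893). Without the 19 libraries holding another tissue, Has2 was dominant in 68.2% of tumours and Has1 in 15 of them. Without correction for length Has1 was dominant in 10 of 167 tumours.

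**Figure D1:**
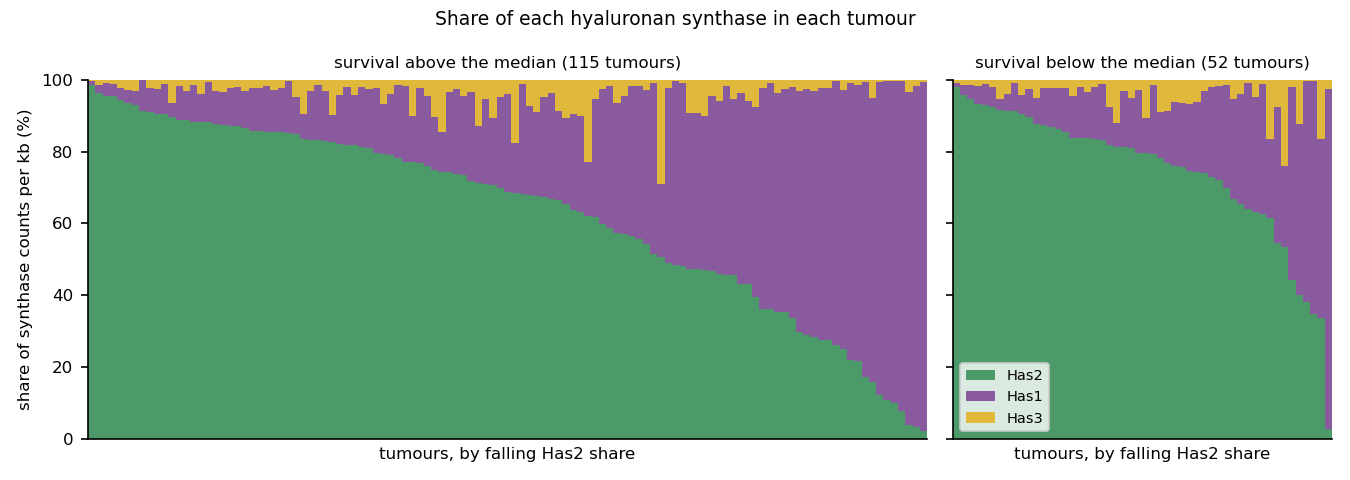
Share of Has2, Has1 and Has3 (%, counts per kilobase) in each tumour, as stacked bars ordered by falling Has2 share within each survival class. Has2 fills most of most bars, and the tumours with mostly Has1 lie almost all in the class above median survival, which holds 18 of them against 1 of 52 tumours below.

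Has1-dominant tumours were found mostly in mice above median survival. In that class 18 tumours were dominated by Has1, 69 by Has2, and 28 were mixed. Some of its Has1 tumours came from strains with no mouse below the median, namely CC046, CC035, CC058, LOX, Rogan and TOFU. The others came from CC021, CC040, Piping, VIT, VUX and YID, which held both classes. In the class below median survival Has1 dominated 1 of 52 tumours, from mouse PUB-I1 with a share of 94.7%, Has2 dominated 42, and 9 were mixed. The PUB-I1 library held 23720 CPM of skeletal muscle markers, the most of any mouse below the median. With tumours of a mouse summed, Has1 led in 15 of 83 mice above and 1 of 36 below. The mean Has1 share per mouse was 34.5% ± 26.5 (SD, n = 83) above and 22.8% ± 20.4 (SD, n = 36) below, a difference of -11.7 points (two-sided permutation test, p = 0.0191). That of Has2 was 61.4% ± 25.9 above and 73.4% ± 20.9 below (p = 0.0163), and that of Has3 4.10% ± 4.70 and 3.81% ± 4.12 (p = 0.747). Adjusted over the 3 shares, which sum to 100% in each mouse, p was 0.0287 for Has1, 0.0287 for Has2 and 0.747 for Has3. The ranges of the classes overlapped almost wholly.

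That difference did not pass in every setting. With class labels permuted within the 13 strains holding both classes (57 mice), the mean difference in Has1 share was -12.3 points, with p = 0.0512 before and 0.0768 after adjustment. Without the 8 Umod strains the difference over all strains was -12.5 points with an adjusted p of 0.0506 (permutation test). Of the 19 Has1 tumours, 4 were libraries with over 1% of another tissue, among them both tumours of CC046-L3, with 4.09% and 3.45% skeletal muscle counts. The others were those of TOFU-K2 and of PUB-I1, the latter the only Has1 tumour below the median. Without all libraries of that kind the difference was -12.0 points (adjusted permutation p = 0.0273).

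The fit over all genes called none of the 10 hyaluronan genes between the survival classes. It used edgeR's quasi-likelihood test on counts summed per mouse, with a Benjamini-Hochberg adjusted p under 0.05 over 17091 genes as the threshold, and it called 267 genes, 1.56% of those tested. The median difference of the 10 genes, below minus above the median, was -0.07 on the log2 scale, and that of all genes -0.02. DESeq2 called 285 genes (1.67%) and limma-voom 0 (0%), with 0 of the 10 in either. At an unadjusted p under 0.05 the numbers were 1544 genes with edgeR, among them Has1, and 487 with limma-voom.

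Has1 had the lowest p of the 10. It stood at 0.239, 4.61 and 94.7 CPM (lowest, median, highest) in the mice above and at 0.428, 3.00 and 50.4 CPM in those below, so the below class lay inside the range of the other. Its difference was -0.84 ± 0.38 (SE) on the log2 scale, with an edgeR p of 0.0277 and an adjusted p of 0.427. Within strain, on the 57 mice of the 13 strains with both classes, the difference was -0.32 ± 0.47 (edgeR, adjusted p = 0.806).

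Has2 leaned the other way without passing. Its lowest, median and highest levels were 0.627, 25.7 and 220 CPM above and 2.29, 36.1 and 334 CPM below the median. The difference was 0.42 ± 0.28 (edgeR, adjusted p = 0.758) over all mice and 0.78 ± 0.44 (adjusted p = 0.484) within strain. Has3 had medians of 1.638 and 1.502 CPM, with differences of 0.26 ± 0.20 and 0.44 ± 0.26 (edgeR, adjusted p = 0.817 and 0.509). The difference of each synthase was thus within the spread over mice at this threshold.

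The remaining members had smaller differences in the class contrast. Cd44 had medians of 367 and 331 CPM and a difference of -0.19 ± 0.15 (edgeR, adjusted p = 0.820). Hyal1, Cemip and Tnfaip6 had values of -0.11, -0.16 and -0.16, Hyal2 one of 0.11, Hmmr one of -0.04, and Vcan one of -0.00. Within strain, where 0 of 16481 genes (0%) passed with edgeR, 0 with limma-voom (0%) and 65 (0.394%) with DESeq2, the 10 genes again had 0 calls. The values within strain ran from -0.36 for Hyal1 to 0.78 for Has2, with 6 of 10 above 0.

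**Figure D2:**
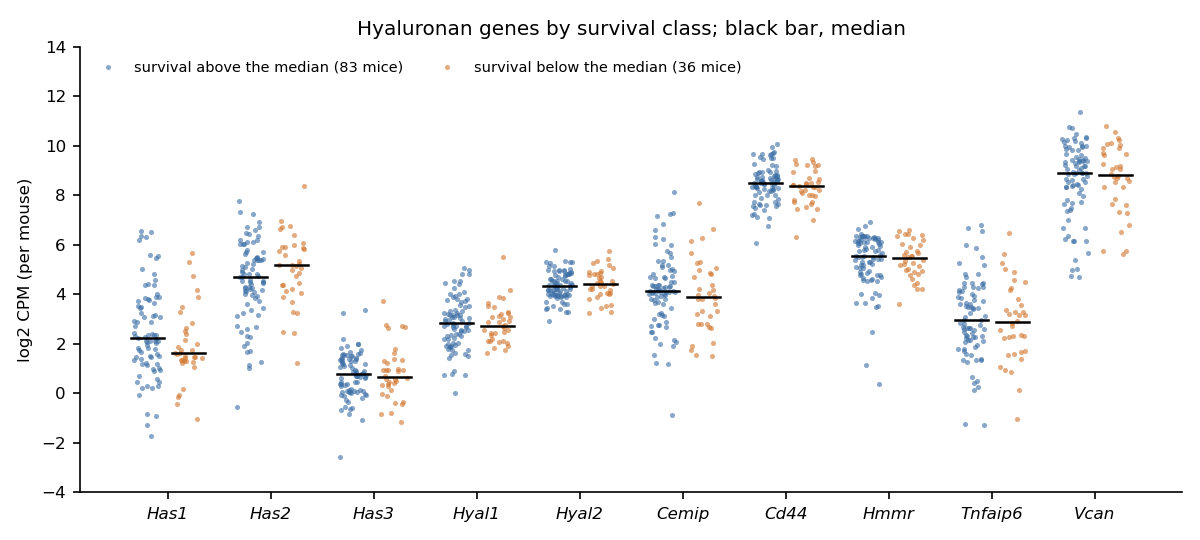
Level of each hyaluronan gene per mouse (log2 CPM, vertical axis) for the 83 mice above and the 36 below median survival, with a black bar at the median. The classes overlap for all 10 genes, and the spread of Has1, Has2, Cemip, Tnfaip6 and Vcan within a class is far wider than the gap between medians.

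Of 37 other genes of the hyaluronan pathway 33 were tested and 1 passed between classes. This was Itih3, a heavy chain of inter-alpha-inhibitor made mainly by liver, with a difference of 2.23 ± 0.64 (edgeR, adjusted p = 0.0452). Mouse TAS-I1 held 4719 CPM of it, 83.8% of the CPM summed over the mice below the median, and 15.6% of that library's counts came from hepatocyte markers. Without TAS-I1 the value was -0.50 (edgeR, adjusted p = 0.903), and the limma-voom value was 0.63. The call was also lost without CC046-L3, PEF2-A2, CC074-B3 or CC053-A4, with values of 2.21 each. Other settings called more of the list. Without mouse LAX-E2, the library of the other class with the most hepatocyte counts, 6 of the 33 passed, beside 3.43% of all genes. The same 6 passed without the Umod strains, beside 3.08% of all genes: Itih1, Itih2, Itih3, Itih4, Ambp and Habp2, all made in liver and higher below the median. TAS-I1 was kept in both settings. With only TAS-I1 left out, 0 of the 33 passed, beside 0.858% of all genes. Without all libraries over 1% of another tissue 4 passed (Itih1, Itih3, Itih4 and Ambp, by 1.72 to 2.23), against 1.23% of all genes. DESeq2 called Itih1, Itih3 and Hapln1, the last with a value of -1.94 (adjusted p = 0.000345), beside 1.67% of all genes.

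The synthase with the clearest strain pattern was Has3. Among the 25 strains with at least 3 mice, 6 of the 10 genes passed the edgeR test of any difference between strains, as did 14283 of 20687 genes, or 69%. Differences between strain means made up 51.2% of the variance of Has3 in log2 CPM, against a median of 35.4% over all genes tested. Of those genes 89.5% had a lower share. The other members ranged from 42.3% for Hmmr down to 17.3% for Cemip. These shares were not corrected for the number of strains, so part of each arises from the spread between mice alone. With limma-voom 4 of the 10 passed, against 50.4% of genes.

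Has3 was highest in strain CC060, with 10.4, 1.70 and 9.57 CPM in its 3 mice, and lowest in CC046, with 0.105, 0.417 and 1.17 CPM. All mice of CC060 lay above all mice of CC046, but these strains were picked as the extremes. The highest and lowest strains also lay apart for Vcan and Cd44, which did not pass between strains, and overlapped for Has1, Has2 and Cemip. The edgeR adjusted p of Has3 was 1.94e-05, and Has3 passed in each of the alternatives tried. Mouse LAT-A2 lay apart in the other direction, with 0.384 CPM against 2.41 to 2.91 CPM in the other LAT mice.

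Has1 strain means were highest in CC046 (log2 CPM 3.98 ± 2.82, SD, n = 3) and lowest in CC044. The 3 CC046 mice held 1.90, 21.3 and 94.7 CPM, and the 7 CC044 mice 0.355 to 11.3 CPM, so the extremes overlapped. The test gave an adjusted p of 0.00178 with edgeR and 0.299 with limma-voom. In LOX, the strain with the widest spread, 7 mice ran from 0.239 CPM in LOX-E4 to 82.5 CPM in LOX-C1. Has2 did not pass between strains (edgeR, adjusted p = 0.109). It did so with DESeq2 (0.0193), with the lowest-numbered tumour of each mouse (0.0339) and without mouse VUX-D1 (0.0436). Its means ran from VUX, where 4 mice held 3.13, 86.1, 159.1 and 334 CPM, down to LOX.

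**Figure D3:**
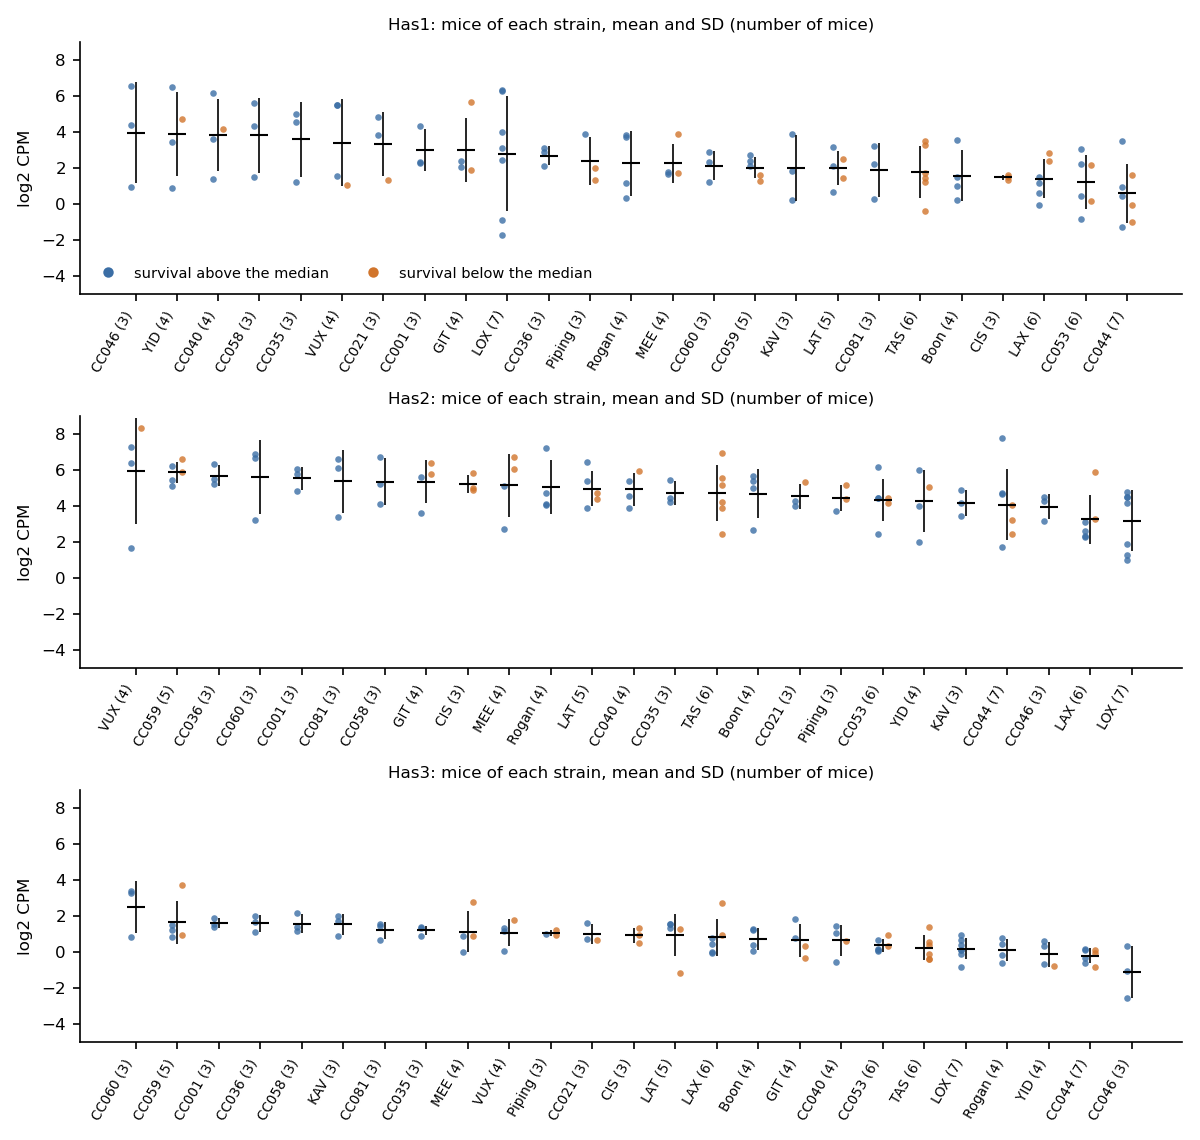
Level of Has1, Has2 and Has3 (log2 CPM) in each mouse of the 25 strains that held 3 mice or more, coloured by survival class, with the mean and SD of each strain in black and strains ordered by mean. Has3 spreads least within strains, and Has1 and Has2 spread over several log2 units within single strains such as LOX and VUX.

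The tally of dominant synthases is given here for the strains at either end, since the share of no synthase passed the test between strains. In CC044 Has2 dominated 13 of 14 tumours, whereas in YID it dominated 0 of 5, with 1 led by Has1 and 4 mixed. Has1 led 3 of 4 tumours in CC046, from mice CC046-J5 and CC046-L3, and 3 of 5 in CC035, from CC035-D3 and CC035-H1. CC046 and CC035 each held 3 mice. The 4 YID mice held 91.5, 10.96, 1.81 and 26.7 CPM of Has1 and 65.8, 15.9, 4.01 and 33.5 CPM of Has2. The share of Has1 had 33.8% of its variance between strains (permutation test over mice, p = 0.0517, adjusted 0.0775), and the share of Has2 had 35.0% (p = 0.0357, adjusted 0.0775). They passed without the 8 Umod strains, a setting added after seeing the data, with 36.9% (adjusted permutation p = 0.0322) and 39.5% (adjusted p = 0.0311).

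Of the degradation genes, Hyal1 and Hyal2 passed between strains and Cemip did not. Hyal1, a lysosomal hyaluronidase, stood at 0.945, 7.14 and 46.7 CPM (lowest, median, highest tumour). Its highest tumour was TAS-I1, the library with 15.6% hepatocyte counts. Its adjusted p of 0.0404 (edgeR) became 0.0783 without that mouse and 0.139 without all libraries holding another tissue. The call was also lost with limma-voom (0.129) and with no filter on low counts (0.0564). Hyal1 overlaps Hyal3 and Naa80 on its own strand, so its counts are uncertain to that degree.

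Hyal2, a membrane-anchored hyaluronidase, was the steadiest member, with 7.65, 20.2 and 55.3 CPM and an SD over mice of 0.57 on the log2 scale. Its highest tumour was LAX-E2, where hepatocyte markers took 22.9% of counts, and their part in that level was not tested. Its adjusted p between strains was 0.0221 with edgeR, 0.0289 with DESeq2 and 0.00279 with limma-voom. The edgeR value became 0.0721 when libraries were scaled by size factors of the DESeq2 kind (RLE), and 0.0534 with no filter on low counts. It was 0.0621 without the 17 libraries of highest number and 0.0549 without the Umod strains. Cemip, which binds hyaluronan and drives its cleavage, ran from 0.492 through 16.7 to 289 CPM (edgeR between strains, adjusted p = 0.185). Its 2 highest mice were PEF2-A2 with 286 CPM and VUX2-G1 with 207 CPM.

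The receptors Cd44 and Hmmr had unlike patterns. Cd44 stood at 31.6, 355 and 1330 CPM, was high in nearly all tumours, and did not pass between strains (edgeR, adjusted p = 0.151). Its lowest libraries carried other tissue: the lowest tumour, LOX-B4 tumour 3, held 43.03% reproductive tract counts, and the lowest mice LAX-E2 (66.8 CPM) and TAS-I1 (79.5 CPM) held the most hepatocyte counts. What those tissues contribute to these low values was not tested. Its highest mouse was YID-C1, with 1089 CPM.

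Hmmr, which binds hyaluronan but is best known as a spindle protein of dividing cells, stood at 1.30, 47.4 and 157.6 CPM. It passed between strains (edgeR, adjusted p = 0.0047), from a highest mean in CC036, with 109.5, 79.2 and 78.6 CPM, to a lowest in LOX. Over 119 mice its log2 CPM followed the centred mean of 12 proliferation markers with a Spearman rho of 0.90 and a Pearson r of 0.95 (r = 0.92 without the 2 farthest mice). The permutation p adjusted over 120 pairs of members and marker lists was 0.0002. With strain means subtracted rho was 0.94. The 5 genes closest to Hmmr were Top2a (rho 0.92), Prr11, Kif18a, Bub1 and Spdl1 (0.91 each), the highest likeness that any member reached.

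The promoter of Hmmr is shown for this reason, with those of Has1, the synthase that leads in the smaller set of tumours, and Vcan. Each is the 250 bases before the RefSeq start (GRCm38.p6), 5′ to 3′ on the strand of the gene. All 3 lie on the minus strand, Hmmr at chr11:40733438-40733687, Has1 at chr17:17855189-17855438 and Vcan at chr13:89742513-89742762. Capitals mark matches to CCAAT (or ATTGG), to TTTGAA or TTTAAA, to the motif GGGCGG, to TGANTCA and to GGAATG on either strand, and to TATAAA on the strand of the gene. In Hmmr a CCAAT match and a GGGCGG match overlap.
Hmmr: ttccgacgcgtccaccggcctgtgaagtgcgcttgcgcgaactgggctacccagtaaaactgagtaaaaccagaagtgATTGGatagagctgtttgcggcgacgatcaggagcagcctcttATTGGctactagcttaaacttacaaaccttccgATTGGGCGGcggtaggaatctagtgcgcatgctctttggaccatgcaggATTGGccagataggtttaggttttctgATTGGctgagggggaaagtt
Has1: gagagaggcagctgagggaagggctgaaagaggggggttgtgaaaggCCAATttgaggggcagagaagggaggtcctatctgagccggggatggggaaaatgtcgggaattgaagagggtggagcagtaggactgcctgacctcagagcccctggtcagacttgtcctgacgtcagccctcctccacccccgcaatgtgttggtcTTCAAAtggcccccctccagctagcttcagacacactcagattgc
Vcan: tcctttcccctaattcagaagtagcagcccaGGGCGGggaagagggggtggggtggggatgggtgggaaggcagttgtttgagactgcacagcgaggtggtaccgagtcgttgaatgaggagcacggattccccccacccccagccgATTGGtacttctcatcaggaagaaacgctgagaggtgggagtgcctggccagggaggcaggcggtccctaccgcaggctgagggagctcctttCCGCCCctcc
The Hmmr window holds 5 CCAAT matches, at 20 to 172 bases before the start counted from their first base, and 1 match to GGGCGG. It holds no match to TTTGAA or TTTAAA. Of 32851 promoter windows of this length 33.9% hold at least 1 CCAAT match, and 917 (2.79%) hold 3 or more. A count of 5 or more, a cut equal to the count in Hmmr, is held by 70 (0.213%). The Has1 window holds 1 CCAAT match and 1 match to TTTGAA, a motif set found in 25.2% of windows. The Vcan window holds 1 CCAAT match and 2 to GGGCGG, which 32.7% of windows hold. A match is only a run of letters and was not tested for binding.

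The matrix partners Tnfaip6 and Vcan varied together across mice. Vcan, a large chondroitin sulfate proteoglycan, stood at 15.1, 491 and 2788 CPM, and Tnfaip6, which is secreted, at 0.364, 6.96 and 171 CPM. Tnfaip6 passed between strains (edgeR, adjusted p = 0.0224) but not without the Umod strains (0.0569), and Vcan did not pass (0.659). The highest strain mean of Tnfaip6 was that of GIT, where 4 mice held 7.72 to 90.1 CPM, and the lowest that of KAV, where 3 mice held 1.34 to 5.94 CPM. The Spearman rho of Tnfaip6 and Vcan over 119 mice was 0.57 (Pearson r 0.58). The permutation p adjusted over all 45 pairs of members was 0.00015, which here comes from 1.0e-05, the smallest that 100000 permutations can give. Has2 followed both, with rho 0.60 for Vcan (r = 0.72) and 0.48 for Tnfaip6 (r = 0.52), each at the same adjusted p. Leaving out the 2 farthest mice gave r of 0.58, 0.68 and 0.49 in that order, and rho with strain means subtracted was 0.57, 0.63 and 0.47.

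Has1 followed the same genes more weakly. Its rho was 0.37 with Vcan, 0.36 with Tnfaip6 and 0.35 with Cd44 (adjusted permutation p of 0.000225, 0.0003 and 0.000707, Pearson r of 0.38, 0.37 and 0.35). The synthases themselves showed little joint variation. Has1 had a rho of 0.14 with Has2 (r = 0.14, adjusted permutation p = 0.216) and 0.08 with Has3 (r = 0.05, adjusted p = 0.572). Has2 and Has3 had a rho of 0.32 (r = 0.31, adjusted permutation p = 0.00157), which was 0.20 with strain means subtracted (adjusted p = 0.0678). Hyal1 ran against Hmmr, with a rho of -0.38 (r = -0.40, adjusted permutation p = 0.0003). In all, 19 of the 45 pairs passed.

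**Figure D4:**
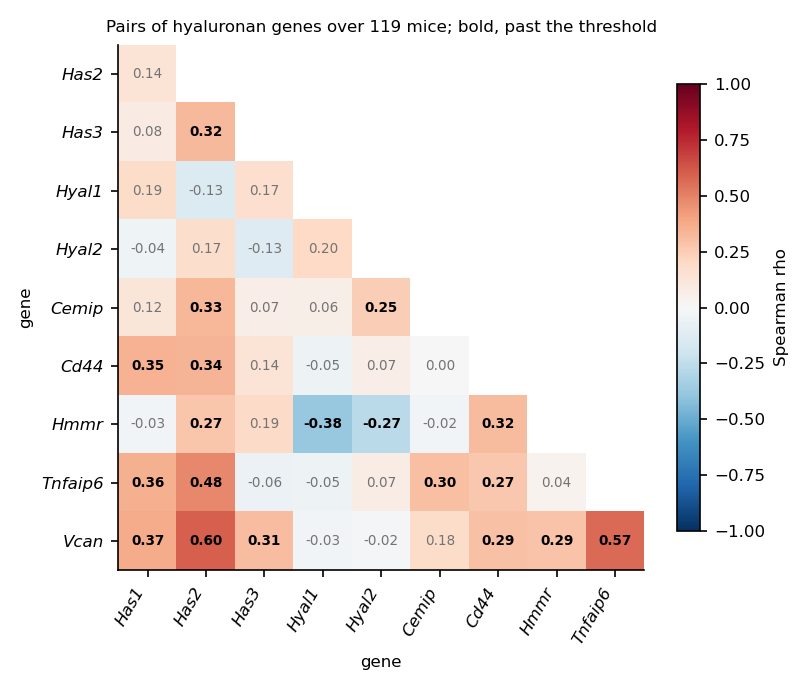
Spearman rho of log2 CPM over 119 mice for each pair of the 10 genes, on a colour scale from -1 to 1, with bold numbers where the adjusted permutation p was under 0.05. The strongest cells link Has2, Tnfaip6 and Vcan, and the lowest value is that of Hyal1 with Hmmr, -0.38.

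Marker lists moved with several of these genes. The mean of 10 fibroblast markers had a rho of 0.54 with Vcan, 0.54 with Tnfaip6, 0.48 with Cemip and 0.45 with Has2 (adjusted permutation p = 0.0002 for each, Pearson r from 0.52 to 0.67). Has1 instead followed the 12 mesothelial markers (rho 0.39, r = 0.46, adjusted permutation p = 0.000514), with which Has2 had a rho of -0.17. Summed fibroblast markers ran from 601 to 99739 CPM in mice above the median and from 1635 to 69291 CPM in those below, and mesothelial markers from 10.95 to 6131 CPM and from 25.1 to 4316 CPM. Hyal1 ran against the proliferation list (rho -0.50, r = -0.48, adjusted permutation p = 0.0002). The part of cell composition in these relations was not tested.

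By likeness over mice, Has1 was closest to Klf4 (rho 0.67), then Ahnak, Arf2, Kank2 and Cast. Has2 was closest to Tpbg (0.68) and Chsy1 (0.67), then Anks1b, Mex3a and Odaph. Has3 was closest to Nfat5 (0.66), which lies on the same chromosome at chr8:107293470-107379517, then to Trove2, Zfyve16, Zfp111 and Zdhhc17. Hyal1 was closest to Atp6v1a (0.58), Mmp12, Mcoln1, Arg1 and Tbc1d24. Hyal2 was closest to Nr2f6 (0.73), Zfp768, Ltbr, Tmem115 and Furin, with Tmem115 at chr9:107533945-107538673 beside Hyal2 at chr9:107567945-107572779. Cemip was closest to Ttc28 (0.56), Gpr162, Tnn, Aebp1 and Nynrin, and Cd44 to Iqgap1 (0.64), Pdcd6ip, Ptpn9, Spred1 and Katnbl1. Tnfaip6 was closest to Fstl1 (0.67), Medag, Sparc, Col1a1 and Crtap, and Vcan to Nav3 (0.71), Rhobtb3, Sema3a, Gli3 and Prrx1. These genes were picked as the highest of all with a mean of at least 5 CPM, so their values are descriptions.

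Tested with edgeR, mice of a strain differed in most members beyond the spread between tumours of a mouse, as they did in most genes. In 58 tumours of 25 mice from 10 strains, 9 of the 10 genes passed this test (edgeR over 20305 genes, of which 63.3% passed). Hmmr did not (adjusted p = 0.665). With limma-voom 5 of the 10 passed, against 55.5% of genes, and Has1, Has2, Has3 and Cemip were lost. Without libraries holding another tissue 6 of the 10 passed with edgeR, against 54.2% of all genes, and Has3, Hyal1 and Cemip were lost (adjusted p of 0.772, 0.0881 and 0.112). The SD between tumours of a mouse, over all 35 mice with several tumours, was 1.33 for Has1, 1.31 for Has2 and 0.79 for Has3 on the log2 scale, against 0.59 for the median gene. Over the tumours of a strain it was 1.48, 1.52 and 0.87. Without libraries holding another tissue or nearer another strain, the SD within a mouse fell to 0.91 for Has1 and was 1.27 for Has2, against 1.27 and 1.54 within a strain. In that setting it was larger within a mouse than within a strain for Has3 (0.77 against 0.73), Cemip (0.82 against 0.81) and Hmmr (0.65 against 0.63).

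Single mice nonetheless held tumours far apart. In CC059-E2, 3 tumours ranged from 2.33 to 209 CPM for Has2, from 0.999 to 23.2 CPM for Has3 and from 4.33 to 47.96 CPM for Hmmr, with the lowest value of all 3 genes in tumour 2. In CC053-A1, tumour 1 and tumour 2 held 1368 and 28.5 CPM of Vcan, 14.1 and 0.818 CPM of Tnfaip6 and 9.27 and 0.345 CPM of Has1. In LOX-B4, tumour 1 held 119 CPM of Has1 and tumour 3, with its 43.03% reproductive tract counts, 0.358 CPM.

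The dominant class was shared by all tumours in 26 of the 35 mice. Has1-dominant and Has2-dominant tumours met in 2 mice. One was LOX-B4, just described, and the other Rogan-C3, with Has1 shares of 1.08% and 89.7%, where the high tumour is 1 of the 5 libraries nearer another strain, here CC046. Without those 5 libraries and the 19 with other tissue, 21 of 25 mice had 1 class and 0 mice held both kinds.

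**Figure D5:**
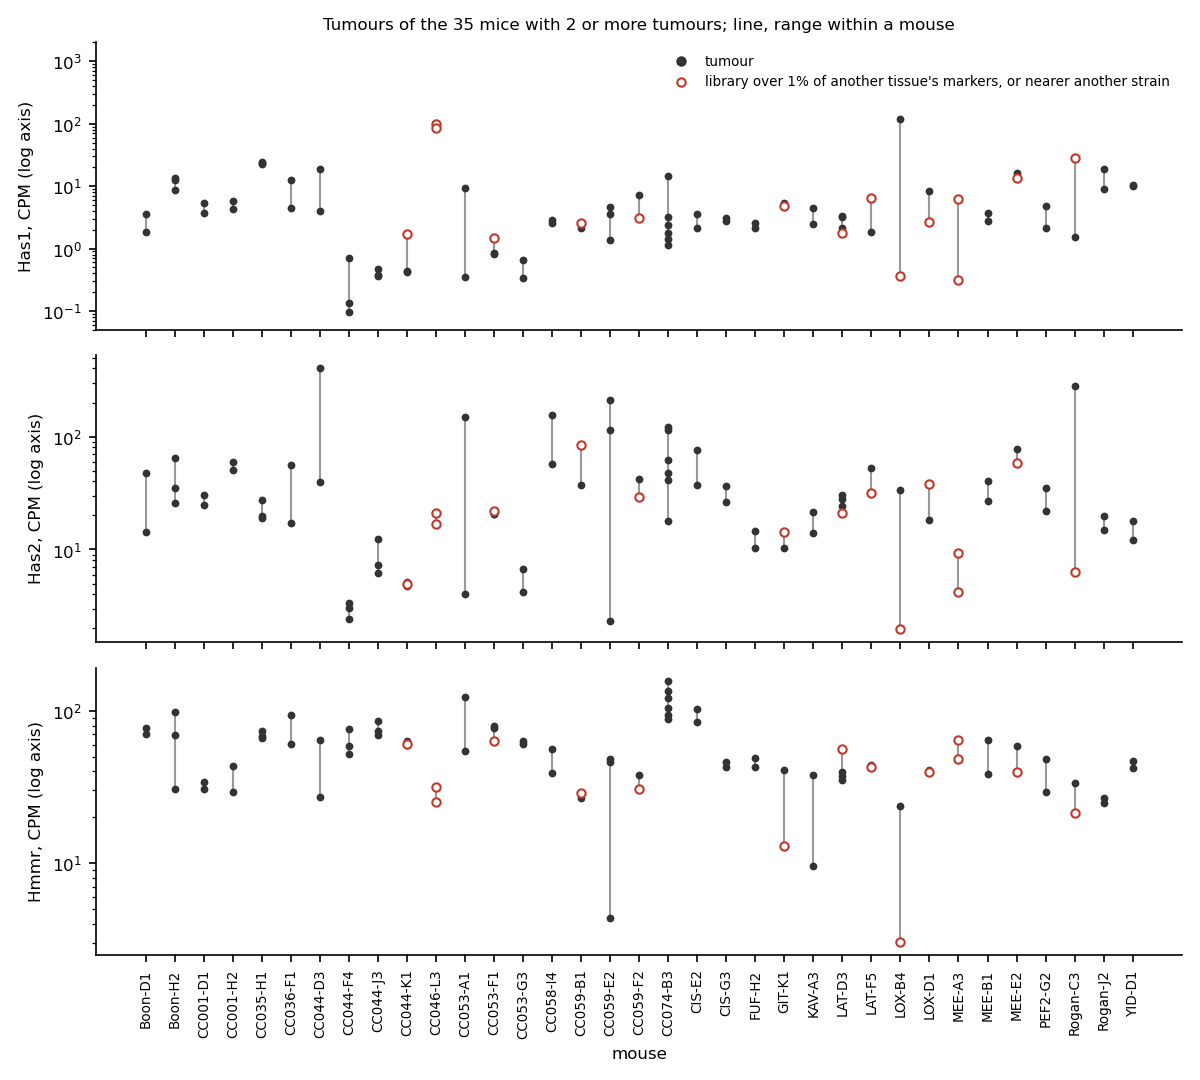
Level of Has1, Has2 and Hmmr (CPM, log axis) in each tumour of the 35 mice with several tumours, joined by a line within a mouse, with open red circles for libraries over 1% of another tissue's markers or nearer another strain. The median range is 0.82 log2 units for Has1, 0.66 for Has2 and 0.43 for Hmmr, and the widest spans of Has1 (LOX-B4) and of Has2 (CC059-E2) reach from 0.358 to 119 CPM and from 2.33 to 209 CPM.

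With edgeR the wider pathway list passed between strains and between mice of a strain at rates near those of all genes. With limma-voom its rate between strains was lower. Between strains 25 of 34 tested genes passed (edgeR), beside 69% of all genes, and 12 of 34 with limma-voom, beside 50.4%. The lowest p were those of the liver-made Itih3, Itih4, Ambp, Itih2, Itih1 and Habp2. Their highest mice were TAS-I1 and LAX-E2, the libraries with the most hepatocyte counts, and none of the 6 passed with limma-voom (adjusted p from 0.113 to 0.477). Between mice of a strain 25 of 35 tested genes passed, beside 63.3% of all genes, with the lowest p for Ptx3, a pentraxin that binds Tnfaip6, and for Gfpt2 and Uap1, enzymes of the UDP-N-acetylglucosamine supply (edgeR, adjusted p of 8.51e-05, 8.94e-05 and 0.000104). Hapln4, Ambp and Gusb followed. Gfpt2 reached 785 CPM in GIT-K2 and 616 CPM in YID-C1, against a median of 31.8 CPM, and Uap1 reached 508 CPM in YID-C1.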

How the data were processed

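Kallisto 0.46.1, the build GRCm38, DESeq2 and DESeq are named in the submitters' processing notes. Their settings and the annotation release are not stated in those notes. The authors deposited estimated counts for each gene in each tumour, as whole numbers without normalization. Per the labels' protocols the libraries were strand-specific, and whether strand was used in counting is not given, so Has2 and its antisense gene Has2os, and Has3 and Chtf8, may share reads. Columns were joined to samples by title: 165 to 1 sample and 2, of mouse GIT-K1, to class and mouse. A symbol was found for 35825 of 36118 genes, and positions and lengths come from GENCODE M21 (GRCm38).

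Counts were added up over the tumours of each mouse, normalized by TMM, and compared with edgeR 4.0.16 in R 4.3.3 (quasi-likelihood F-test, filterByExpr, two-sided, adjusted p under 0.05). An SE is the absolute log2 difference divided by the root of F. CPM use TMM-scaled libraries, and log2 CPM a prior count of 2. The mouse was the sample in each test, except that the tumour was the sample for the comparison of mice within a strain. There, p-values set the differences between mice against the spread between tumours of one animal. Synthase shares and correlations were tested with 100000 permutations. Limma 3.58.1, DESeq2 1.42.0, other filters and left-out libraries or mice were the alternatives. The members, the pathway list, the marker lists and the tests were chosen with earlier results of these data known. Genes named are all 10 members, up to 6 pathway genes of lowest p among those past the threshold in each comparison, and the 5 genes of highest Spearman rho with each member. All 10 members passed the filter in each comparison. Simulated data used the same spread setting (dispersion) for every gene. There, 100 of 100 genes changed by 1 on the log2 scale were recovered in the survival contrast. Within strain 77 were recovered, between strains 60 and between mice 7, and 100 of 100 changed by 2 in each. That setting was not taken from the hyaluronan genes, so these recovery rates need not hold for them. Their SD within strains ran from 0.53 for Hyal2 to 1.77 for Has1 on the log2 scale. The second deposited table was not used here.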

Additional observations from a re-analysis of the deposited data

Results flagged for a closer look

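In 14 strains of 4 to 7 mice, the 10 genes gave 140 groups of mice, and in 17 of them (12.1%) the highest or lowest mouse stood apart from the others of its strain by more than Dixon's 95% limit, where chance alone flags about 1 group in 20. Several of these mice recurred. VUX-D1 was lowest of its strain for Hyal2, with 9.86 CPM against 18.97 to 21.5, and for Vcan, with 70.9 CPM against 808 to 1033. CC059-E2 was highest for Has3, with 13.2 CPM against 1.72 to 2.81, and for Cd44, with 692 CPM against 356 to 420. CC040-D3 was highest for Cemip, with 158.1 CPM against 15.4 to 22.8, and for Cd44, with 837 CPM against 361 to 408.

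Other such mice were libraries with over 1% of another tissue. LAX-F2 (1.66% skeletal muscle counts) was highest for Has2, with 60.8 CPM against 4.83 to 9.78, and for Tnfaip6, with 19.2 CPM against 2.46 to 3.83. BOON-I2 (1.41% skeletal muscle counts) was lowest for Hmmr, with 2.17 CPM against 65.5 to 82.96, and for Tnfaip6, with 3.57 CPM against 21.7 to 25.9. TAS-I1 was lowest for Cd44, with 79.5 CPM against 259 to 503.

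The rest concern 1 gene each. Has1 reached 50.4 CPM in GIT-K2 against 3.61 to 5.13, and 14.7 CPM in MEE-E2 against 3.10 to 3.35. Has3 was 0.384 CPM in LAT-A2 against 2.41 to 2.91, and 6.63 CPM in LAX-C2 against 0.903 to 1.89. In CC044, Hyal2 was 35.3 CPM in CC044-D3 against 9.51 to 16.3, and Cemip 2.79 CPM in CC044-F2 against 12.1 to 34.01.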

How the results depend on the processing

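Of 10 hyaluronan genes, none was called between survival classes under any alternative run, over all strains or within strain. Over all strains 1.56% of all genes tested were called, and this was 3.43% without a filter on low counts, 0% with limma-voom, 3.08% without the Umod strains, 0.858% without TAS-I1 and 3.43% without LAX-E2, and within strain the count went from 0 to 65 genes with DESeq2. Of the 10 genes, 6 passed between strains, and 4 to 7 did in the alternatives, where 48.6% to 78.4% of all genes passed; the 7 include Has2, which did not pass otherwise. Between mice of a strain 9 passed, and 5 to 9 in the alternatives, beside 37.5% to 63.9% of all genes. Uncalled differences near 0 changed sign. For Vcan the value of -0.00 became 0.10 with limma-voom, 0.0194 without libraries holding another tissue, 0.0031 without libraries nearer another strain, 0.0344 with the lowest-numbered tumours, 0.0359 without TAS-I1, 0.0293 without CC059-E2, 0.00038 without YID-C1, 0.0266 without CC074-B3 and 0.0741 without CC053-A4. Hmmr became 0.0850 with limma-voom and 0.0045 without libraries holding another tissue, Hyal1 0.0703 without the Umod strains, Cemip 0.0043 without PEF2-A2 and Itih3 -0.50 without TAS-I1. Within strain, Hyal2 became -0.0701 without the 17 libraries of highest number, Cemip -0.0239 with limma-voom and -0.25 without the Umod strains, Hmmr -0.14 without those strains and Tnfaip6 0.0226 with limma-voom. The cause was not tested. Without the Umod strains, chosen for the shares after seeing the data, the class difference lost its call for the share of Has1 (-12.5 points) and of Has2 (12.8 points), and the strain difference gained one (36.9% and 39.5% of variance). Also added after seeing the data were the leaving out of libraries nearer another strain for mice within strain, shares and correlations, mean transcript lengths, and the marker list correlations. The number of Has2-dominant tumours stayed within 1.5 times of its value, while the 19 led by Has1 became 10 at 4 times the next synthase and 39 with no minimum ratio, and the number of correlated pairs within 1.5 times of 19. No paired analysis was possible because the labels give no numbers that pair mice across classes. Depth limits Has1 and Has3, which rest on 2 counts in their lowest tumours.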

Other observations

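Aggrecan (Acan), a cartilage proteoglycan that binds hyaluronan, had the widest spread over mice of the 37 wider pathway genes (SD 2.79 on the log2 scale), and is described here after its values were seen. It was listed at 0 in mice CC040-D3 and CC040-H1, had a median of 14.6 CPM over 119 mice, and reached 658 CPM in PEF2-A2, the mouse that also held the most Cemip (286 CPM) and the most Hapln1 (82.4 CPM), a link protein that ties aggrecan to hyaluronan. Median Acan was 9.61 CPM in mice above and 19.95 CPM in mice below median survival, and the difference of 0.14 ± 0.49 did not pass (edgeR, adjusted p = 0.979).

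Lymphocyte marker lists ran against some members. The B cell list passed for 5 of the 10 genes, with a Spearman rho of -0.36 for Vcan, -0.33 for Tnfaip6, -0.29 for Has1, -0.25 for Has2 and -0.25 for Hyal2 (adjusted permutation p of 0.0006, 0.0036, 0.0130, 0.0356 and 0.0385, Pearson r from -0.45 to -0.28). The T cell list passed for 3, with a rho of -0.32 for Hyal2, -0.26 for Hyal1 and -0.25 for Has1 (adjusted permutation p of 0.0042, 0.0356 and 0.0356, Pearson r of -0.37, -0.31 and -0.37), and not for Vcan (rho -0.23, r = -0.42, adjusted permutation p = 0.0603). In all, 22 of the 120 pairs of member and list passed. Summed B cell markers ran from 0.852 to 2699 CPM over mice above median survival, with the highest in CC053-H1, and from 1.05 to 2368 CPM over mice below it.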
